A study of Homo sapiens with 10 samples.

Results

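The genes described here encode the DNA replication machinery, the proteins that license origins, unwind the duplex and copy both strands in S phase. There were 44 such genes, chosen by name from the 65003 entries of a gene expression table, and all 44 were expressed in every library, from 9.30 TPM (GINS3 in oeDAZL replicate 2) to 263 TPM (PCNA in the same library). TPM is a length-corrected share of a library's transcripts that can be compared between genes of a library. The genes were sorted by complex into the MCM helicase (7 genes), ORC and licensing factors (9), GINS and CDC45 (5), polymerases and primase (8), PCNA and RFC (6), RPA (3), flap removal and ligation (2) and nucleotide supply (4).

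The 4 RNA-seq libraries came from H9, a human embryonic stem cell line, and formed 2 groups of 2. The control libraries are titled Normal and labelled SD cells of genotype wt that were spontaneously differentiated. The other 2 are labelled hPGCLCs, primordial germ cell-like cells differentiated in culture from the stem cells, of genotype oeDAZL, in which the RNA-binding protein DAZL was overexpressed from a lentivirus. For overexpression, the study's methods describe differentiation with BMP4 and BMP8a and transduction with lentivirus. They do not say how the cells of these 4 libraries in particular were cultured. The design text of the series calls the controls WT PGCLCs, so the labels and the text describe the control culture differently, and a difference in culture cannot be told apart from an effect of DAZL. Nothing in the labels says whether replicates were separate cultures, so the p-values measure the spread between these libraries, which may be technical. Both groups rest on 1 cell line. The 6 small-RNA samples of the series were not analysed here.

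In a normal S phase, the origin recognition complex (ORC), CDC6 and CDT1 load the MCM2-7 helicase on DNA in G1, geminin (GMNN) blocks reloading, and CDC45 and GINS switch the helicase on. Polymerase alpha with primase starts each strand, RFC loads the PCNA clamp, polymerases epsilon and delta extend the leading and lagging strands, RPA covers single-stranded DNA, and FEN1 and LIG1 join Okazaki fragments. Transcription of many of these genes is periodic in the cell cycle and is controlled by E2F factors, and in germ cells the machinery serves the mitotic expansion that precedes meiosis.

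The promoter windows hold a sequence feature that the choice of genes did not use. Windows of 300 bases, from 250 before to 50 after the annotated start, were taken from RefSeq on GRCh38.p14, and 38 of the 44 genes had at least 1 window. Sequences of the kind that E2F factors bind, TTTCGCGC, TTTGGCGC, TTTCCCGC and TTTGCCGC, were searched on both strands. At least 1 of them was found in 19 of the 38 genes (50%) against 1090 of 27305 genes with a window (3.99%) and 696 of 10816 such genes at a mean of 1 TPM or more (6.43%). The MCM helicase had a match in 4 of 5 genes and GINS and CDC45 in 3 of 4, while nucleotide supply had 1 of 4 and RPA 0 of 1. A match is a string of letters and was not tested for binding.

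The stretches below are shown because they hold the matches of a pair of helicase subunits (MCM2, MCM6), a helicase loader (CDC6), the clamp (PCNA) and 4 of the 9 genes that passed the unadjusted test below (GINS2, POLE, LIG1 and TYMS). They are read 5′ to 3′ on the strand of the gene, and capitals mark the matched letters.
MCM2: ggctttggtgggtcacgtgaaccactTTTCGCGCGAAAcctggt
MCM6: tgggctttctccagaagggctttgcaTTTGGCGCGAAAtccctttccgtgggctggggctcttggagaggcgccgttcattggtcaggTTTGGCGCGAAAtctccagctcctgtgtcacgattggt
CDC6: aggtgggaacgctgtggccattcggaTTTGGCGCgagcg
GINS2: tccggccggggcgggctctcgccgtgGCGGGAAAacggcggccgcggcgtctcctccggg
POLE: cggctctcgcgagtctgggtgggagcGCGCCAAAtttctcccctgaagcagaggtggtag
PCNA: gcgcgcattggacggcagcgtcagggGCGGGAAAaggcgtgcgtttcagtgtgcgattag
LIG1: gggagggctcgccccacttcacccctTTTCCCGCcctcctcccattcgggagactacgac
TYMS: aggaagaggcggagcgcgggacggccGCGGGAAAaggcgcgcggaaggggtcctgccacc

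On GRCh38.p14 these stretches lie at chr3:127598387-127598430 (MCM2, plus strand), chr2:135876496-135876621 (MCM6, minus), chr17:40287860-40287898 (CDC6, plus), chr16:85688952-85689011 (GINS2, minus), chr12:132687327-132687386 (POLE, minus), chr20:5126648-5126707 (PCNA, minus), chr19:48170425-48170484 (LIG1, minus) and chr18:657588-657647 (TYMS, plus). In MCM2 and MCM6 a forward and a reverse match overlap in a run of 12 bases, which in MCM2 equals its own reverse complement. MCM6 holds 2 such runs, with first bases 152 and 90 bases before the start. The matches in POLE, GINS2, TYMS and PCNA begin 18, 31, 39 and 59 bases before their starts, and that in LIG1 114 bases before. These distances are to the RefSeq start of each window, which in GINS2, POLE, PCNA and LIG1 lies inside the GENCODE gene positions given below. The 19 genes with a match had a median log2 fold change of −0.03 (1 higher and 3 lower in the test described below), and the 19 genes with a window and no match one of −0.03 (2 higher and 3 lower).

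The question put to these genes was whether the machinery for copying DNA differed between oeDAZL and control cells. Their summed level was similar in the groups. The 44 genes together held 3078 and 3111 TPM in control cells against 3133 and 3128 TPM in oeDAZL cells, which is 0.308 to 0.314% of each library. Within that total, PRIM1, POLE, POLD1, LIG1, CDC45 and GINS2 were lower in oeDAZL cells at an unadjusted P of 0.05 or below in limma. TYMS, FEN1 and RPA1 were higher at the same threshold. No MCM2-7, ORC or RFC gene passed in this fit, and all lay within 0.17 of no change on the log2 scale, as did RPA1 (0.15). In other fits described below, MCM2 passed at 0.23 (GC and length correction) and RFC3 at 0.27 (median-of-ratios scaling). No gene of the 44 changed 2-fold.

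Each gene was tested in limma on log2(TPM + 1) across 16687 genes whose mean TPM reached 1 or more, and fold changes are on that scale, oeDAZL over control. At an unadjusted P of 0.05 or below, 3 of the 44 genes were higher (6.82%), against 5.02% of all genes tested, and 6 were lower (13.6%), against 15.2% of all genes tested. In this fit both shares are near the background. With a fold change of at least 2 on this scale as well, 0 of 44 passed, against 0.689% of all genes. The study applied these thresholds to a model of read counts, so its number of calls is not comparable with this one. After Benjamini-Hochberg adjustment in limma 0 of 44 passed 0.05, against 0.0599% of all genes, and the smallest adjusted p was 0.0931, for POLE. Both oeDAZL libraries were above both control libraries for 12 of the 44 genes (27.3%), against 16% of all genes. They were below for 17 genes (38.6%), against 38.4% of all genes, and the groups overlapped for 15 genes. The median log2 fold change was −0.03 over the 44 genes and −0.08 over all genes tested, 65.3% of which were below 0. An exact permutation test of a single gene cannot go below p = 0.333 with 2 libraries against 2.

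The split of higher and lower calls depended on how the libraries were scaled. With median-of-ratios scaling, 11 of the 44 genes were higher and 2 lower at an unadjusted P of 0.05 or below in limma, with 11.2% and 8.20% of all genes. The higher share of the 44 genes was then above that of all genes, and the lower share below it. Quantile normalization gave 5 higher and 4 lower, with 8.40% and 9.07% of all genes. These scalings moved the median log2 fold change of all genes from −0.08 to 0.01 and 0.01, and that of the 44 genes from −0.03 to 0.07 and 0.02. TYMS stayed higher and POLE and PRIM1 lower in all of these fits.

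**Figure D1:**
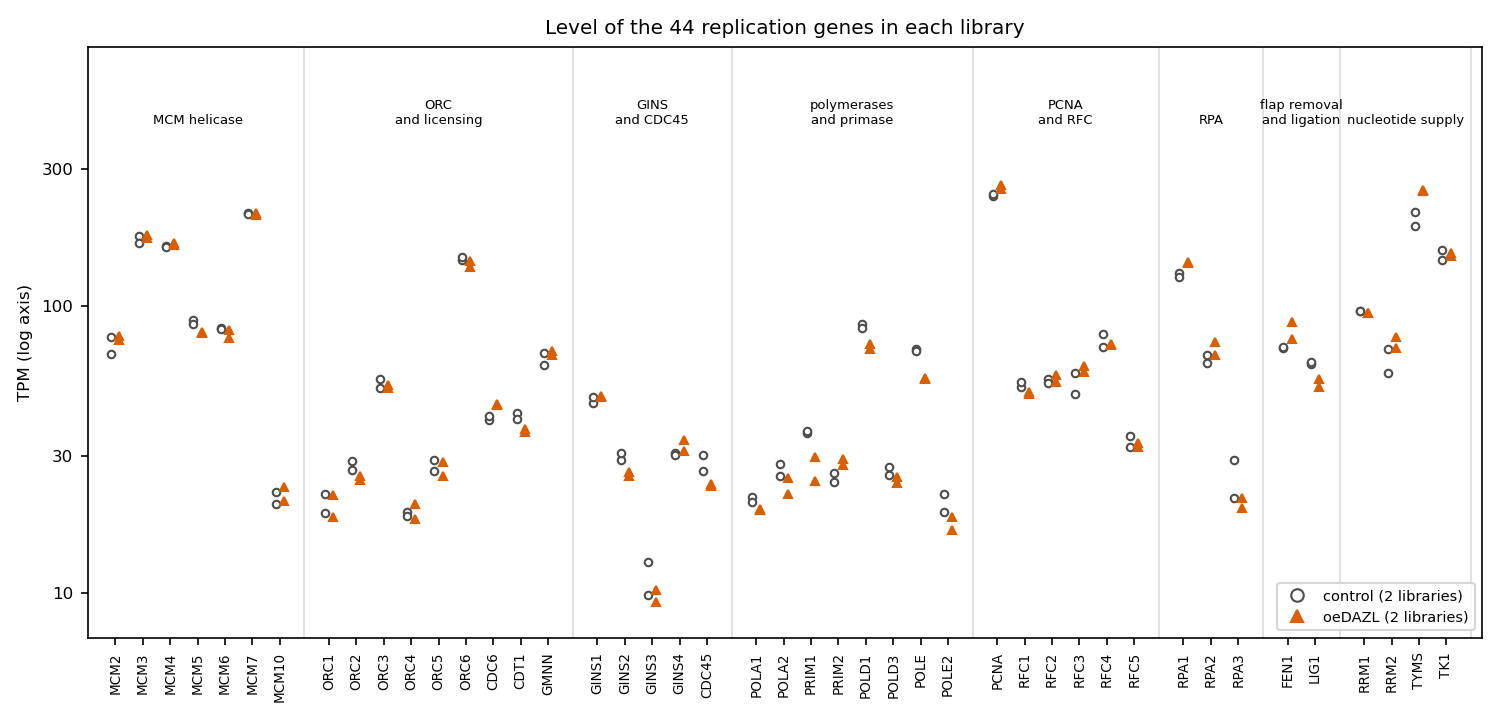
Level of each gene in TPM on a log axis, sorted by complex, with open circles for the 2 control libraries and triangles for the 2 oeDAZL libraries. PCNA, TYMS and MCM7 lay at 190 TPM or above in every library and GINS3 at 9.30 to 12.8 TPM, while circles and triangles of a gene lie close together.

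The table keeps no read depth, so precision was read from the replicates, which lay close together for these genes. The median absolute difference between the replicates on the log2 scale was 0.08 in the control group and 0.05 in the oeDAZL group, against 0.14 and 0.10 over all genes tested. The median absolute log2 fold change between groups was 0.10 over the 44 genes, and the largest was 0.41. Among the 9224 genes tested within the same range of mean TPM, the replicate differences were 0.11 and 0.07, and 6.40% were higher and 17.5% lower at an unadjusted P of 0.05 or below in limma.

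The polymerase and primase genes held 3 of the 6 lower calls, which is 37.5% of these 8 genes, against 15.2% of all genes tested. POLE and POLD1, among the 3, lie in the band of high GC content described below, where 23.1% of all genes were lower. Of the 8 genes, 7 lay below both control libraries in both oeDAZL libraries and 1, PRIM2, lay above, where 38.4% of all genes lay below. Their median log2 fold change was −0.20, and it stayed below 0 in every alternative fit, from −0.21 to −0.06. The lower genes included the catalytic subunits of polymerases epsilon and delta and of primase.

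POLE, the catalytic subunit of polymerase epsilon and the leading-strand enzyme, was at 70.7 and 69.7 TPM in control cells against 55.6 and 56.3 TPM in oeDAZL cells. The groups were far apart against a replicate spread of under 1 TPM. POLE had a log2 fold change of −0.32 (SE 0.06), with an unadjusted P of 0.00160 and an adjusted p of 0.0931 in limma, and it passed the unadjusted threshold in all 14 alternative fits. Its accessory subunit POLE2 was at 22.1 and 19.2 TPM in control cells against 16.6 and 18.3 TPM in oeDAZL cells. The groups of POLE2 did not overlap, but its log2 fold change of −0.23 (SE 0.11) had an unadjusted P of 0.0779 in limma. POLE2 passed the unadjusted threshold in some alternative fits, among them the crossed block described below. The POLE gene lies on chr12 from 132623753 to 132687376 (hg38, minus strand).

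PRIM1, the catalytic subunit of primase that makes the RNA primer, had the largest absolute log2 fold change of the 44 genes. It was at 36.0 and 36.8 TPM in control cells against 24.7 and 29.9 TPM in oeDAZL cells. Both oeDAZL values were lower, and they stood further apart from each other than the control values did. The log2 fold change was −0.41 (SE 0.11), with an unadjusted P of 0.00757 and an adjusted p of 0.131 in limma. Without oeDAZL replicate 1 it became −0.28, with an unadjusted P of 0.0546 in limma. PRIM1 spans chr12 from 56730438 to 56752374 (hg38, minus strand). Its exons share 25.4% of their bases with ENSG00000285625, a gene model on the same strand that was listed at a mean of 0.355 TPM, and 3.44% with NACA, which was at 685 TPM. The part of these shared bases in the PRIM1 values was not tested.

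PRIM2, the large regulatory subunit that binds PRIM1 in a dimer, lay on the other side. It was at 24.4 and 26.2 TPM in control cells against 28.0 and 29.4 TPM in oeDAZL cells. The groups did not overlap, and the log2 fold change of 0.18 (SE 0.08) had an unadjusted P of 0.0778 in limma. PRIM2 passed the unadjusted threshold in some alternative fits, among them median-of-ratios scaling and quantile normalization. The ratio of PRIM1 to PRIM2 within a library was 1.48 and 1.40 in control cells against 0.879 and 1.02 in oeDAZL cells. In the polymerase alpha part of the same complex, the ratio of POLA1, the polymerase alpha catalytic subunit, to POLA2 was 0.848 and 0.737 in control cells against 0.780 and 0.880 in oeDAZL cells, and the groups overlapped. The ratios were chosen after the values were seen and are a description without a test.

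POLD1, the catalytic subunit of polymerase delta that extends Okazaki fragments, was at 86.5 and 83.7 TPM in control cells against 71.0 and 73.9 TPM in oeDAZL cells. The groups were clearly apart, and the log2 fold change of −0.23 (SE 0.06) had an unadjusted P of 0.00886 and an adjusted p of 0.138 in limma. POLD1 did not pass with median-of-ratios scaling, with a correction for GC content and length, or without oeDAZL replicate 1. The gene lies on chr19 from 50384204 to 50418018 (hg38, plus strand). The remaining genes of the group did not pass the test. Their log2 fold changes were −0.18 for POLA2, −0.11 for POLA1 and −0.10 for POLD3, an accessory subunit of polymerase delta. The exons of POLA2 share 55.8% of their bases with ENSG00000285816 on the same strand, which was at a mean of 3.45 TPM.

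**Figure D2:**
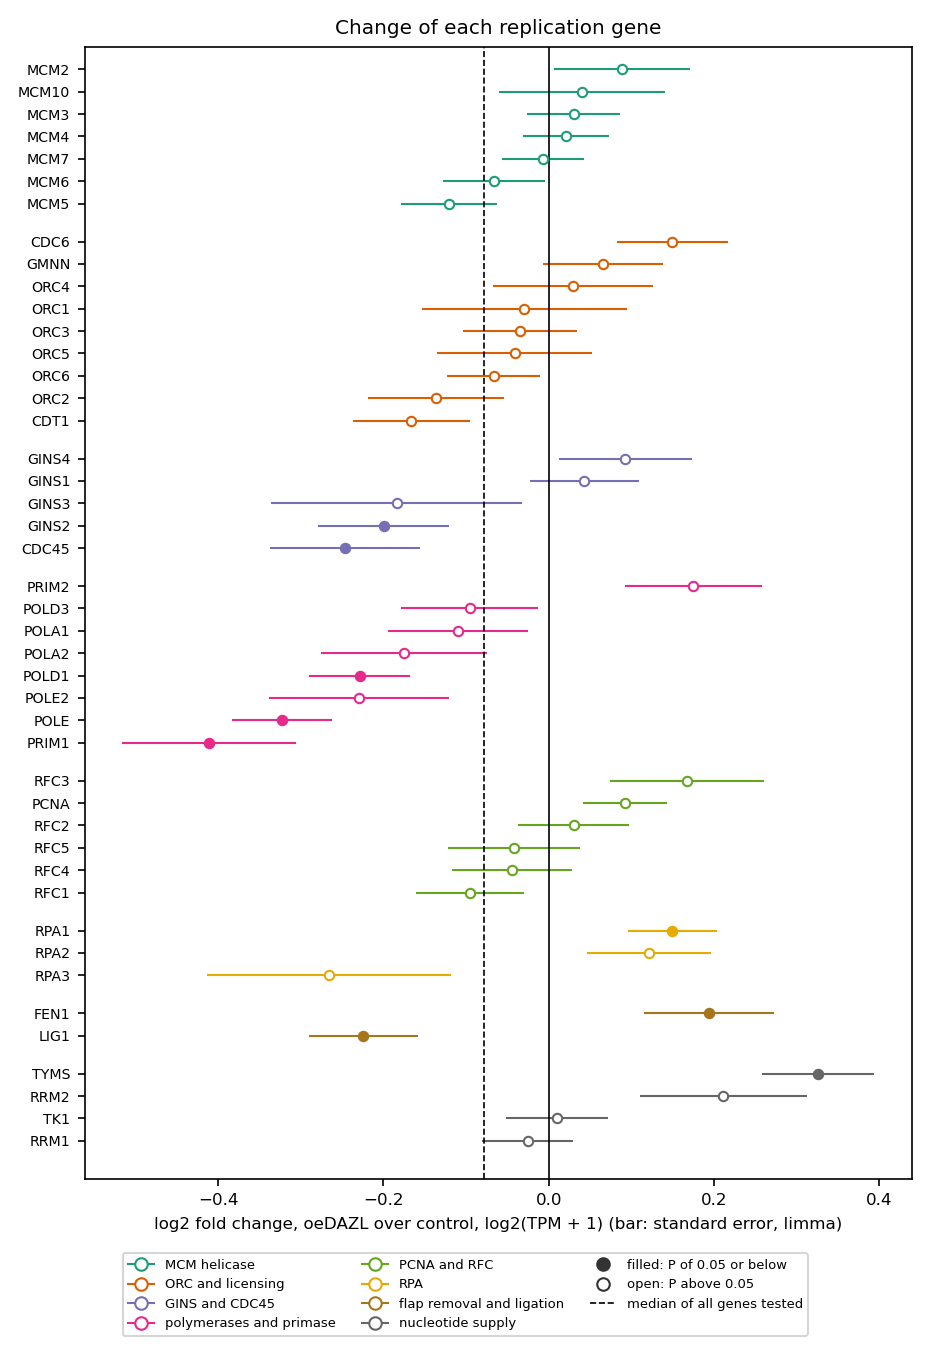
Log2 fold change of each gene, oeDAZL over control on the log2(TPM + 1) scale, with the limma standard error as a bar and the genes sorted within each complex. Filled points had an unadjusted P of 0.05 or below, the dashed line is the median of all genes tested (−0.08), and the polymerase and primase genes other than PRIM2 lie to the left of that line.

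The helicase activators held 2 more of the lower calls, which is 40% of the 5 genes of GINS and CDC45, against 15.2% of all genes tested. CDC45, which joins MCM2-7 and GINS in the active helicase, was at 30.2 and 26.7 TPM in control cells against 23.6 and 23.9 TPM in oeDAZL cells. The groups did not overlap, and the control libraries differed from each other by more than the nearest values of the groups did. The log2 fold change was −0.25 (SE 0.09), with an unadjusted P of 0.0337 and an adjusted p of 0.213 in limma. CDC45 is on chr22 from 19479457 to 19520612 (hg38, plus strand). GINS2 was at 29.1 and 30.9 TPM in control cells against 26.4 and 25.5 TPM in oeDAZL cells. Its groups did not overlap, and its log2 fold change of −0.20 (SE 0.08) had an unadjusted P of 0.0450 and an adjusted p of 0.237 in limma. GINS2 is on chr16 from 85676198 to 85690073 (hg38, minus strand). CDC45 lost the unadjusted threshold in 8 of 14 alternative fits and GINS2 in 9.

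The other GINS subunits, which form 1 complex with GINS2, did not pass the test. GINS1 was at 46.1 and 48.1 TPM in control cells against 48.7 and 48.4 TPM in oeDAZL cells, with a log2 fold change of 0.04. GINS4 was at 30.8 and 30.4 TPM in control cells against 34.2 and 31.3 TPM in oeDAZL cells, with a log2 fold change of 0.09 (SE 0.08). Both were above the control libraries by less than 1.5 SE. GINS3, the lowest of the 44 genes, was at 9.81 and 12.8 TPM in control cells against 10.3 and 9.30 TPM in oeDAZL cells, so that the groups overlapped.

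The MCM helicase held no call in the reported fit, and its median log2 fold change was 0.02 over 7 genes. MCM2, a subunit that also binds histones, had the highest log2 fold change of the complex (0.09, SE 0.08), at 78.1 and 67.9 TPM in control cells against 76.4 and 78.6 TPM in oeDAZL cells. These groups overlapped. MCM2 passed the unadjusted threshold in 3 of 14 alternative fits, those with median-of-ratios scaling (0.19), with the GC and length correction (0.23) and without control replicate 1, and MCM3 passed with median-of-ratios scaling. MCM5 had the lowest (−0.12, SE 0.06), at 89.7 and 86.5 TPM in control cells against 80.5 and 81.3 TPM in oeDAZL cells. The groups of MCM5 did not overlap, and its unadjusted P was 0.0835 in limma. MCM5 passed the unadjusted threshold without a filter on TPM. Its log2 fold change came to −0.020 with median-of-ratios scaling and 0.0090 with the GC and length correction. The other subunits moved less. MCM7 was at 212 and 209 TPM in control cells against 210 and 209 TPM in oeDAZL cells, MCM4 ranged from 161 to 165 TPM over the 4 libraries and MCM3 from 166 to 177 TPM.

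The 6 subunits of the MCM2-7 ring are present in equal number in the protein complex, but their transcripts were not at equal levels. MCM7, MCM3 and MCM4 were the highest, in that order, in all 4 libraries, and MCM2 was the lowest of the 6. The highest was 2.65 to 3.09 times the lowest within a library. Only MCM5 and MCM6 changed places, in oeDAZL replicate 2. MCM10, a firing factor outside the ring, was at 20.4 to 23.4 TPM.

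ORC and the licensing factors also held no call in that fit. ORC6, the smallest ORC subunit, was the highest of the 9 genes in every library, at 145 and 148 TPM in control cells against 143 and 136 TPM in oeDAZL cells. ORC4 was the lowest of the 9 in every library, and the ratio of highest to lowest was 6.69 to 7.98. ORC1 to ORC5 had log2 fold changes from −0.14 (ORC2) to 0.03 (ORC4). CDC6, which ORC recruits to load the helicase, was at 40.1 and 41.5 TPM in control cells against 45.6 and 45.2 TPM in oeDAZL cells. The groups did not overlap, and the log2 fold change of 0.15 (SE 0.07) had an unadjusted P of 0.0665 in limma and passed the unadjusted threshold in 5 of 14 alternative fits. CDT1, the partner of CDC6 in loading, was at 42.4 and 40.4 TPM in control cells against 37.2 and 36.3 TPM in oeDAZL cells, with a log2 fold change of −0.17 (SE 0.07) and an unadjusted P of 0.0562 in limma. CDT1 passed the unadjusted threshold in some alternative fits, among them the one without a filter on TPM. Its direction was lost with a correction for GC content and length (0.017, unadjusted P 0.806 in limma). The ratio of CDC6 to CDT1 was 0.947 and 1.03 in control cells against 1.22 and 1.24 in oeDAZL cells. GMNN, the inhibitor of CDT1, had a log2 fold change of 0.07 and overlapping groups.

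PCNA, the sliding clamp, was the highest of the 44 genes in every library. It was at 241 and 246 TPM in control cells against 257 and 263 TPM in oeDAZL cells. The groups did not overlap, and the log2 fold change of 0.09 (SE 0.05) had an unadjusted P of 0.117 in limma. PCNA passed the unadjusted threshold with median-of-ratios scaling and with the GC and length correction. It was 6.84 to 8.17 times RFC5, the lowest of the 6 genes in every library. None of the clamp loader subunits passed the test. RFC3, the highest by fold change, was at 49.4 and 58.3 TPM in control cells against 61.9 and 58.9 TPM in oeDAZL cells, with a log2 fold change of 0.17 (SE 0.09). RFC1, the large subunit and the lowest by fold change, was at 52.1 and 54.5 TPM in control cells against 49.5 and 50.2 TPM in oeDAZL cells, with a log2 fold change of −0.10 (SE 0.07). RFC2, RFC4 and RFC5 had overlapping groups.

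RPA1, the large DNA-binding subunit of the single-strand binding protein, was among the higher genes. It was at 130 and 126 TPM in control cells against 142 and 142 TPM in oeDAZL cells. The difference was larger than that between replicates, and the log2 fold change of 0.15 (SE 0.05) had an unadjusted P of 0.0316 and an adjusted p of 0.209 in limma. RPA1 lost the unadjusted threshold in 5 of 14 alternative fits, among them those without control replicate 2, oeDAZL replicate 1 or oeDAZL replicate 2. RPA1 is on chr17 from 1829702 to 1900082 (hg38, plus strand). RPA2 was at 67.4 and 63.5 TPM in control cells against 74.8 and 67.8 TPM in oeDAZL cells, with a log2 fold change of 0.12 (SE 0.08). RPA2 passed the unadjusted threshold with median-of-ratios scaling. RPA3, the smallest subunit, was at 29.0 and 21.4 TPM in control cells against 21.5 and 19.7 TPM in oeDAZL cells. Its groups overlapped, and its log2 fold change of −0.27 (SE 0.15) became −0.06 without control replicate 1. The order RPA1, RPA2, RPA3 held in all 4 libraries, with RPA1 at 4.48 to 7.20 times RPA3.

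The pair of enzymes that finish Okazaki fragments went opposite ways. FEN1, the flap endonuclease, was at 71.3 and 72.2 TPM in control cells against 87.9 and 77.0 TPM in oeDAZL cells. The groups did not overlap, and the oeDAZL libraries differed from each other by more than the control libraries did. The log2 fold change was 0.19 (SE 0.08), with an unadjusted P of 0.0481 and an adjusted p of 0.244 in limma, and it lost the unadjusted threshold in 7 of 14 alternative fits. LIG1, the ligase that seals the nick, was at 62.6 and 64.0 TPM in control cells against 52.4 and 55.7 TPM in oeDAZL cells. The groups of LIG1 were clearly apart, and its log2 fold change of −0.22 (SE 0.07) had an unadjusted P of 0.0141 and an adjusted p of 0.163 in limma. LIG1 lost the unadjusted threshold in 4 of 14 alternative fits, with median-of-ratios scaling, without the variance trend, without oeDAZL replicate 1 and with the GC and length correction. The ratio of FEN1 to LIG1 was 1.14 and 1.13 in control cells against 1.68 and 1.38 in oeDAZL cells. FEN1 is on chr11 from 61792911 to 61797238 (plus strand) and LIG1 on chr19 from 48115445 to 48170603 (minus strand, both hg38). The exons of FEN1 share 2.43% of their bases with FADS2 on the same strand, which was at a mean of 162 TPM. The part of these shared bases in the FEN1 values was not tested.

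TYMS, thymidylate synthase, which makes dTMP from dUMP, had the highest log2 fold change of the 44 genes. It was at 190 and 213 TPM in control cells against 253 and 253 TPM in oeDAZL cells. The oeDAZL values were nearly equal, and both lay above the wider control pair. The log2 fold change was 0.33 (SE 0.07), with an unadjusted P of 0.00282 and an adjusted p of 0.104 in limma, and it passed the unadjusted threshold in all 14 alternative fits. TYMS is on chr18 from 657653 to 673578 (hg38, plus strand), and 59.9% of its exonic bases lie opposite exons of ENOSF1 and 6.57% opposite TYMSOS. ENOSF1 was at 27.4 and 27.1 TPM in control cells against 24.2 and 23.1 TPM in oeDAZL cells. The strand setting of the quantification is not given in the sources used here, so reads of TYMS and its antisense partners may not have been told apart.

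The other nucleotide genes did not pass the test in the reported fit. RRM2, the S-phase subunit of ribonucleotide reductase, was at 58.6 and 70.6 TPM in control cells against 77.8 and 71.6 TPM in oeDAZL cells, with a log2 fold change of 0.21 (SE 0.10) and an unadjusted P of 0.0807 in limma. RRM2 passed the unadjusted threshold in some alternative fits, among them median-of-ratios scaling and the crossed block described below. Its partner RRM1 was at 96.5 and 96.3 TPM in control cells against 94.6 and 94.8 TPM in oeDAZL cells. RRM1 thus stayed nearly level at a log2 fold change of −0.03. The salvage enzyme TK1 was at 144 to 156 TPM with overlapping groups, and the ratio of TYMS to TK1 was 1.32 and 1.36 in control cells against 1.69 and 1.65 in oeDAZL cells. The order TYMS, TK1, RRM1, RRM2 held in all 4 libraries.

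**Figure D3:**
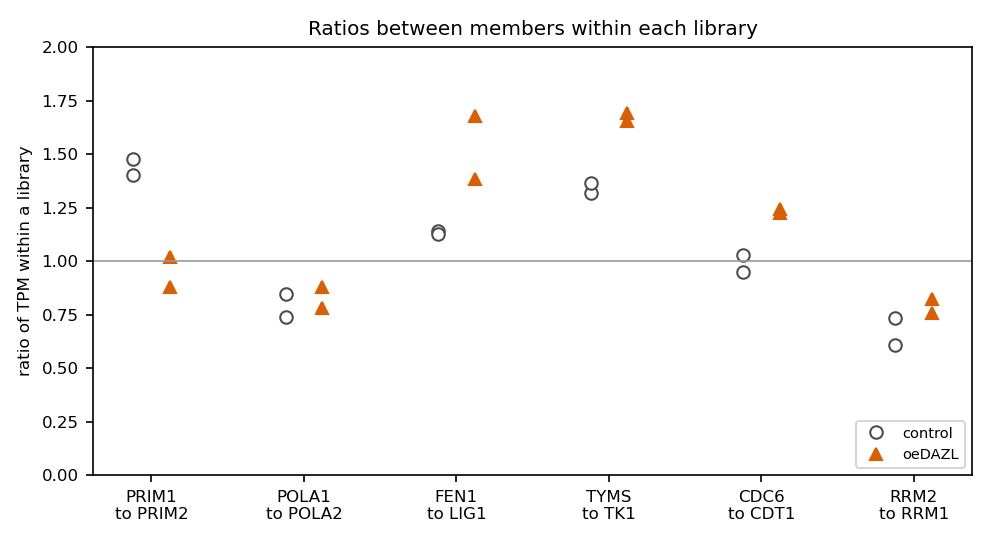
Ratio of the TPM of a pair of genes within each library for 6 functional pairs, with open circles for the 2 control libraries and triangles for the 2 oeDAZL libraries. The PRIM1 to PRIM2 ratio was lower in both oeDAZL libraries (0.879 and 1.02, against 1.48 and 1.40). The FEN1 to LIG1, TYMS to TK1, CDC6 to CDT1 and RRM2 to RRM1 ratios were higher in both, the last narrowly (nearest values 0.733 in control and 0.756 in oeDAZL cells). The POLA1 to POLA2 ratio overlapped. Of other ratios computed, POLE to POLE2, MCM7 to MCM2 and ORC6 to ORC1 overlapped, and POLD1 to POLD3, CDT1 to GMNN, GINS1 to GINS3, RPA1 to RPA3 and PCNA to RFC1 did not. The share of all gene pairs that separate in this way was not computed.

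A further 83 genes that work with the fork or control its genes were examined, and all 83 were tested. At an unadjusted P of 0.05 or below in limma 5 were higher and 10 lower (6.02% and 12%, against 5.02% and 15.2% of all genes tested), so that these shares too were near the background. Their median log2 fold change was −0.06, and none passed after adjustment (smallest adjusted p 0.0962 in limma). Among the genes of nucleotide metabolism, SHMT1, which supplies the carbon unit that TYMS uses, was at 44.4 and 45.0 TPM in control cells against 63.3 and 54.8 TPM in oeDAZL cells, with a log2 fold change of 0.39. CAD, which starts pyrimidine synthesis, was lower, at 61.4 and 55.3 TPM in control cells against 47.7 and 51.2 TPM in oeDAZL cells.

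Of 21 fork subunits and partners, 1 was higher (4.76%) and 3 lower (14.3%), against 5.02% and 15.2% of all genes tested. In the lists that follow, 7.14% of origin firing genes, 22.2% of replication-coupled chromatin genes and 11.1% of checkpoint genes were lower and none higher. The E2F, RB and DREAM list held 10% in each direction. CHTF18, a subunit of an alternative clamp loader that works with polymerase epsilon, had the lowest log2 fold change of the 83 genes (−0.44). It was at 49.8 and 44.7 TPM in control cells against 33.0 and 36.0 TPM in oeDAZL cells, and passed the unadjusted threshold in all 14 alternative fits. TIMELESS, a fork protection factor, had a log2 fold change of −0.22, POLD2, which holds polymerase delta together, one of −0.18, and TOP2A, topoisomerase II alpha, one of 0.14. Of 14 origin firing genes, 1 was lower, RECQL4 (−0.23). Of 9 genes of replication-coupled chromatin, the histone chaperones NASP (−0.20) and CHAF1A (−0.21) were lower. Of 9 checkpoint genes, RAD9A was lower (−0.39), at 16.9 and 16.3 TPM in control cells against 12.3 and 12.6 TPM in oeDAZL cells. Of 20 genes of the E2F, RB and DREAM list, LIN9 (0.26) and TFDP1 (0.16) were higher and RBL2 (−0.25) and E2F4 (−0.23) lower. TIMELESS, POLD2, RECQL4, CAD, CHAF1A, RBL2 and E2F4 lost the unadjusted threshold both with median-of-ratios scaling and with the GC and length correction, which left RECQL4 at −0.015, CAD at −0.055, CHAF1A at −0.071 and POLD2 at −0.071, and NASP lost it with median-of-ratios scaling. Among the higher genes, TOP2A and TFDP1 each lost it in 4 of 14 alternative fits and LIN9 in 5, while SHMT1 kept it in all 14. MKI67, a general marker of cycling cells, was at 54.4 and 56.3 TPM in control cells against 53.6 and 51.1 TPM in oeDAZL cells, with a log2 fold change of −0.08 (SE 0.07) and an adjusted p of 0.535 in limma.

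In a bulk library, fewer cells in S phase and less RNA per cell cannot be told apart. GC content moved with the direction of change over all genes. With all genes in 3 equal bands by GC content, the high band had a median log2 fold change of −0.14 with 23.1% lower at an unadjusted P of 0.05 or below in limma, against −0.03 and 8.29% in the low band. Of the 8 replication genes in the high band, 3 were lower and 0 higher, and these were POLD1 (64.8% GC), LIG1 (59.9%) and POLE (56.4%). Of the 20 in the low band, only PRIM1 (39.6% GC) was called, and the 16 in the middle band held 2 lower calls (GINS2 and CDC45) and 3 higher ones (RPA1, FEN1 and TYMS). After a correction of each library for GC content and transcript length, 6 of the 44 genes were higher and 2 lower, against 9.57% and 7.76% of all genes. Here too the higher share of the 44 genes was above that of all genes, and the lower share below it. POLE kept a log2 fold change of −0.15 and PRIM1 one of −0.39, while POLD1 came to −0.02 and LIG1 to −0.07. TYMS was at 0.38 after the correction. This correction was chosen after the values were seen.

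**Figure D4:**
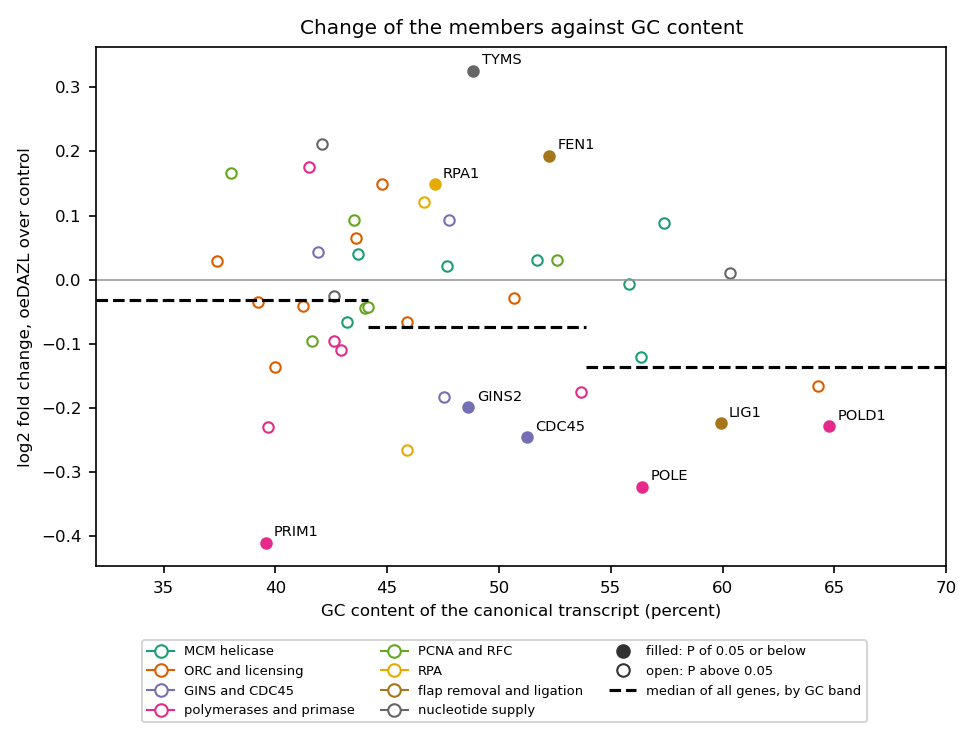
Log2 fold change of each of the 44 genes, oeDAZL over control, against the GC content of its canonical transcript in percent. Filled points had an unadjusted P of 0.05 or below and dashed lines are the medians of all genes in the low, middle and high bands by GC content (−0.03, −0.07 and −0.14). POLE, POLD1 and LIG1 lie in the high band and below its line, and PRIM1 is the only filled point in the low band.

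The targeted gene and the cell type markers bear on how the groups may be read. DAZL was at 0 and 0.0333 TPM in control cells against 102 and 101 TPM in oeDAZL cells, as the labels say. Several listed germ cell markers were low in both groups. SOX17 lay at 2.52 to 3.35 TPM, NANOS3 at 0.732 to 1.66 TPM and PRDM1 at 1.47 to 2.32 TPM over the 4 libraries. DPPA3 lay at 0.716 to 2.17 TPM and KIT at 6.23 to 7.70 TPM, and DDX4 was listed at 0 in all of them. These levels alone do not bear out the label PGCLC, and a bulk library does not show whether a part of the cells was germ cell-like. TFAP2C, which amnion also expresses, was at 44.3 to 53.9 TPM. Of 7 germ cell markers tested, only DAZL itself passed the unadjusted threshold in limma, and the list summed to 70.5 and 62.7 TPM in control cells and, DAZL included, 159 and 164 TPM in oeDAZL cells. Of 7 markers of mesoderm and mesenchyme tested, HAND1 (0.32) was higher and TBXT (−0.97), COL1A1 (−0.55) and COL3A1 (−1.25) lower on the log2 scale at an unadjusted P of 0.05 or below in limma, and the list summed to 2304 and 2199 TPM in control cells against 1955 and 1982 TPM in oeDAZL cells. COL3A1 was at 583 and 479 TPM in control cells against 224 and 220 TPM in oeDAZL cells, and HAND1 at 958 and 1042 TPM against 1250 and 1247 TPM. Of 7 markers of amnion and trophoblast tested, none was higher and ISL1 (−0.49), CDX2 (−0.69) and CGA (−1.18) were lower, and the list summed to 965 to 993 TPM over the 4 libraries. Of 5 pluripotency markers tested, POU5F1 (0.79) and TDGF1 (0.82) were higher and none lower, while the list, mostly LIN28A, summed to 546 and 495 TPM in control cells against 497 and 477 TPM in oeDAZL cells. Of 2 neural markers tested PAX6 was lower (−1.30), and 4 of the 6 listed lay below the control libraries in both oeDAZL libraries. Of these, SOX1, DCX and ELAVL3 were at 0.741 TPM or less in every library and were not tested. Over all genes tested, 38.4% lay below in this way, and 5.02% were higher and 15.2% lower at the unadjusted threshold in limma. The neural sum was mostly TUBB3, with values of 184 and 231 TPM against 249 and 226 TPM and NEUROG2 listed at 0 in 3 of the 4 libraries. Of 5 endoderm markers tested AFP was lower (−1.04), with sums of 262 and 158 TPM against 161 and 202 TPM. The part of cell composition in the differences of the replication genes was not tested.

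**Figure D5:**
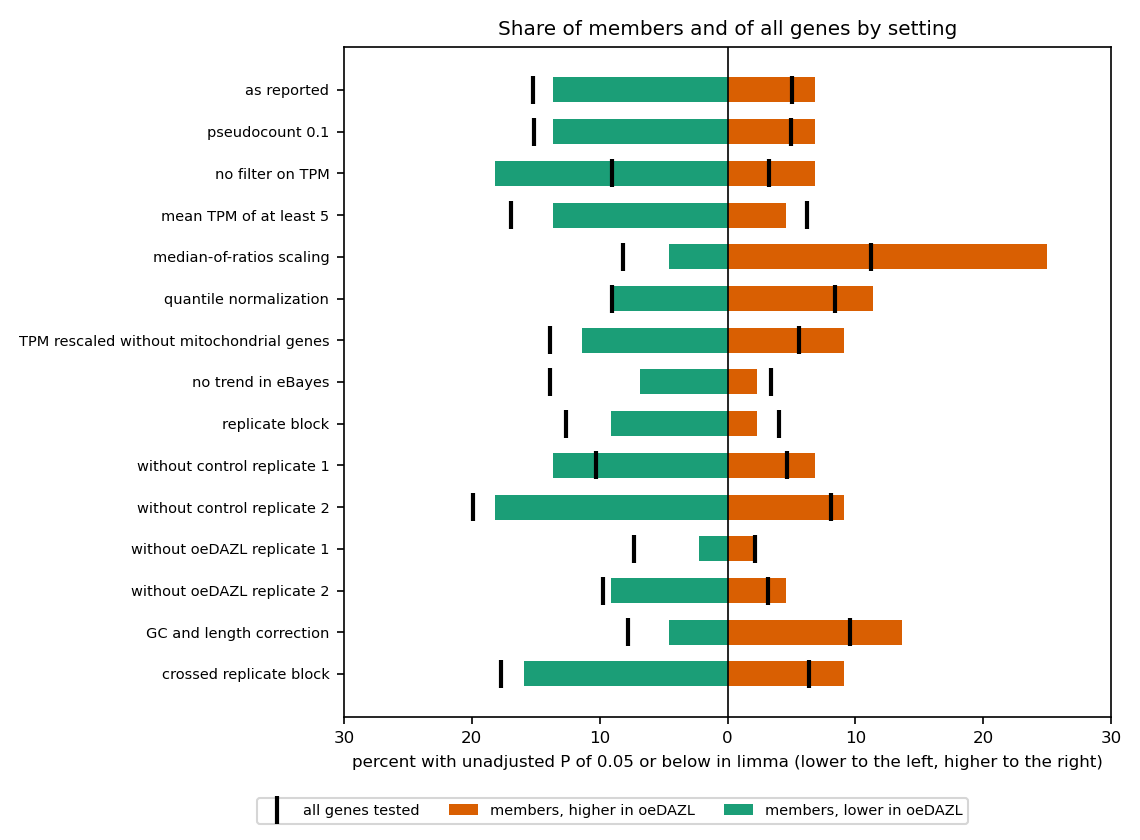
Share of the 44 genes with an unadjusted P of 0.05 or below in limma under each setting, lower in oeDAZL to the left and higher to the right, in percent, with black ticks for the same share of all genes tested. As reported, 13.6% were lower and 6.82% higher, against ticks at 15.2% and 5.02%, and the higher bar is longest with median-of-ratios scaling (11 of 44 genes).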

How the data were processed

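The authors deposited 1 table of TPM per gene, with a column for each of the 4 RNA-seq libraries (2 per group). Per the labels, reads were trimmed with Trim Galore 0.6.4 (the study's methods name another version), and per the labels or those methods they were aligned to hg38 with HISAT2 2.1.0, kept where uniquely mapped and quantified with StringTie 2.1.4; the annotation release and strand setting are not given in the sources used here. TPM keeps no depth, so no counting interval or count test was possible, and the precision of a value is the spread between 2 libraries.

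The 44 genes were matched by name, and 45 PAR_Y and 18 repeated entries of the table were left out. The 16687 genes whose mean over the 4 libraries reached 1 TPM were tested on log2(TPM + 1) with limma 3.58.1 (R 4.3.3; lmFit, eBayes with trend, no covariates, two-sided), with Benjamini-Hochberg adjustment over all of them. The thresholds of the study, a fold change of 2 and an unadjusted P of 0.05, were used beside the adjusted p. A count model such as the study's could not be fitted to TPM.

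Full values were given for genes at an unadjusted P of 0.05 or below and for the highest and lowest fold change of each complex; of the other lists, genes at that P were named with at least their fold change, at most 3 in each direction per list, plus DAZL and MKI67, except 1 gene that is not reported here. Other genes and the ratios were named after their values were seen. The members and lists were chosen with earlier results of these data known. Gene positions, GC content, length and overlaps came from GENCODE release 44 (hg38), which covers 99.5% of the genes tested, and promoter windows from RefSeq on GRCh38.p14. Pseudogene copies of the members were at or below 0.163 TPM on average. Alternatives changed the pseudocount (0.1), the filter (none, or a mean TPM of at least 5), the scaling (median of ratios, quantile, or without mitochondrial genes), the variance trend and the replicate block, and left out each library in turn; a correction for GC content and length (loess, span 0.3) and a crossed block were added after the data were seen. Whether the replicate numbers pair the samples is not known. The correlation of the replicate differences between the groups was −0.104, which cannot settle it.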

Additional observations from a re-analysis of the deposited data

How the results depend on the processing

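POLE and TYMS passed the unadjusted threshold in limma in all 14 alternatives and PRIM1 in 13. The counts of genes at an unadjusted P of 0.05 or below in limma, 3 higher and 6 lower, became 11 and 2 under median-of-ratios scaling, 5 and 4 after quantile normalization, 1 and 3 without the trend, 6 and 2 with the GC and length correction, and 1 and 4 with the replicate block. The lower share of calls went from 66.7% to 15.4%, 44.4%, 75% and 25% in the first 4 of these. Leaving out 1 library gave 1 to 4 higher and 1 to 8 lower; without oeDAZL replicate 1, 1 and 1 remained, TYMS and POLE. No gene reached a 2-fold change in any alternative. The count at an adjusted p under 0.05 in limma, 0 in the reported fit, ranged from 0 to 1 when 1 library was left out; TYMS passed without control replicate 2 (adjusted p 0.0339), where 767 of all genes did. Whether libraries with the same replicate number belong together is not known. The replicate block left 1 higher and 4 lower, all of them among the reported calls. A crossed block, added because the correlation was under −0.1, gave 4 higher, 7 lower and 3 past an adjusted p of 0.05 in limma, where 1089 of all genes passed.

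The median log2 fold change of the 44 genes, −0.03, became 0.066 under median-of-ratios scaling, 0.020 after quantile normalization and 0.013 with the GC and length correction, and ranged from −0.036 to −0.013 with 1 library left out. In that order of settings, the medians by complex became −0.092, −0.072 and −0.13 for GINS and CDC45 (left-out range −0.22 to −0.0055), −0.10, −0.12 and −0.061 for polymerases and primase (−0.20 to −0.17), 0.065, 0.033 and 0.017 for ORC and licensing (−0.081 to 0.0057), 0.093, 0.051 and 0.045 for PCNA and RFC (−0.015 to 0.034), and 0.084, 0.020 and 0.097 for flap removal and ligation (−0.041 to 0.0100). With median-of-ratios scaling and the GC and length correction, the MCM helicase came to 0.12 and 0.097 (−0.014 to 0.025) and nucleotide supply to 0.21 and 0.18 (0.027 to 0.21). RPA came to 0.22 with median-of-ratios scaling (0.051 to 0.16). The cause was not tested. The median absolute log2 fold change between the groups was 0.10, and 35 of the 44 genes did not pass the unadjusted threshold in limma in the reported fit. With 2 libraries per group and no depth, differences of this size were not resolved for most single genes.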
